A study of Mus musculus with 9 samples.

Results

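The miRNAs described here are both arms of the hairpins Mir139 and Mir455, which lie within introns of Pde2a and Col27a1 in the mouse. Mir139 gives mmu-miR-139-5p and mmu-miR-139-3p, and Mir455 gives mmu-miR-455-5p and mmu-miR-455-3p. These are the only rows of the count table whose names begin with miR-139 or miR-455, so 4 of the 1140 rows listed. These hairpins were chosen by their lower levels in TAA livers and their return towards control levels in recovery livers. The differences between the groups are therefore a description of the 4 miRNAs, and where a call is counted it is set beside the share of all rows with that call and is not independent evidence. All 4 rows passed the filter on low counts in each comparison. Liver small RNA of 9 male C57BL/6 mice was sequenced, each a different animal, aged 8 weeks when the injections began. Control mice (n = 3) received normal saline into the peritoneum for 8 weeks. TAA mice (n = 3) received thioacetamide (TAA), a liver toxicant that causes fibrosis, by the same route for 8 weeks. Recovery mice (n = 3) received the same 8 weeks of TAA and were then kept without treatment for 8 more weeks, so that recovery and the higher age of these mice cannot be told apart.

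A miRNA hairpin is cut by Drosha and Dicer into a duplex of its 5p and 3p arms, and the arm that is loaded into an Argonaute protein pairs with mRNAs mainly through its seed, bases 2 to 8. The arm left over is usually degraded. miR-139-5p is widely described as a restraint on growth and migration that is low in liver cancer, and its host gene Pde2a encodes a phosphodiesterase that degrades cAMP and cGMP. miR-455 is best known from cartilage, and its host gene Col27a1 encodes a fibrillar collagen of developing cartilage. miR-455-3p has also been described as a restraint on hepatic stellate cells, the collagen-producing cells of the fibrotic liver.

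The mature sequences are shown because the arms of a hairpin carry different seeds and so could pair with different mRNAs. They were taken from RefSeq for GRCm38 and are written 5′ to 3′ with the seed in capitals.
mmu-miR-139-5p: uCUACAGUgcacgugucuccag
mmu-miR-139-3p: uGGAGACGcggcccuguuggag
mmu-miR-455-5p: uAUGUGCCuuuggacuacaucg
mmu-miR-455-3p: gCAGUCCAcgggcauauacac
No seed was shared among the 4 miRNAs. The first 3 sequences hold 22 bases and begin with U, while mmu-miR-455-3p holds 21 bases and begins with G. The GC content was highest in mmu-miR-139-3p (68.2%) and lowest in mmu-miR-455-5p (45.5%), with 54.5% in mmu-miR-139-5p and 57.1% in mmu-miR-455-3p. Of the 1140 listed names, 935 were found among the RefSeq mature sequences. Among these, the seeds of both Mir139 arms and of mmu-miR-455-3p occurred in no other row, and that of mmu-miR-455-5p occurred in 1 other row, mmu-miR-5129-3p (chromosome 2, 45023110 to 45023131, minus strand).
mmu-miR-5129-3p: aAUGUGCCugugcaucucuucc

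The hairpin Mir139 spans 68 bases on the plus strand of chromosome 7 (GRCm38, 101475376 to 101475443). It is printed with both mature arms in capitals, which shows how they face each other across the loop.
Mir139: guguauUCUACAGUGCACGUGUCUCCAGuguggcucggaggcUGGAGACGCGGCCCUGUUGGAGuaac
mmu-miR-139-5p occupies positions 101475382 to 101475403 and mmu-miR-139-3p positions 101475418 to 101475439. In the GENCODE M21 annotation the hairpin lies in intron 2 of the protein-coding Pde2a transcripts that span it, on the same strand as the gene, 23907 bases after the preceding exon and 5927 bases before the next. This intron is 29902 bases long. Mir455 lies on the plus strand of chromosome 4 (63256851 to 63256932), with mmu-miR-455-5p at 63256867 to 63256888 and mmu-miR-455-3p at 63256904 to 63256924. It is in intron 10 of Col27a1, also on the strand of its host, in an intron of 2318 bases and only 127 bases before the next exon. No annotated exon of either host overlapped its hairpin (0 exons). A duplex computed from the mature arms with RNAduplex held 19 base pairs for Mir139 (-27.7 kcal/mol) and 16 for Mir455 (-22.3 kcal/mol).

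Total counts were 9071847 to 12983378 per library. The TMM factors, which scale each library so that most miRNAs are taken as unchanged, were 0.738 to 0.792 in control livers, 1.43 to 1.63 in TAA livers and 0.766 to 0.887 in recovery livers. Levels are given as counts per 1000000 on this scale (CPM) and as the deposited TPM, which is the count per 1000000 of the library total. Because the factors differ between the groups, the scales give different sizes of change for every miRNA, and values on both follow. The library of TAA replicate 3 stood apart in muscle miRNAs, which were singled out after the values were seen. In this library mmu-miR-1a-3p, mmu-miR-133a-3p and mmu-miR-206-3p, miRNAs of striated muscle, held 67184, 2281 and 943 counts, together 0.768% of the library. In the other 8 libraries they held at most 0.00389%. The log2 fold changes and calls of the 4 miRNAs, their arm ratios and the counts over lists of miRNAs are therefore also given without this library.

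mmu-miR-139-5p, the abundant arm of Mir139, was lower in every TAA liver than in any control or recovery liver on the TMM scale. In control replicates 1 to 3 it was measured at 564, 667 and 658 CPM, in the TAA replicates at 259, 269 and 261 CPM, and in the recovery replicates at 666, 641 and 610.5 CPM. The TAA group did not overlap with either of the others, and control and recovery values interleaved. The means were 629 ± 57.2 CPM in control livers, 263 ± 5.11 in TAA livers and 639 ± 27.7 in recovery livers (SD, n = 3). Counts were 5796, 5056 and 4942 in control livers, 4204, 3981 and 3882 in TAA livers, and 6229, 6979 and 6664 in recovery livers. As deposited TPM the gap between control and TAA was narrow, with 446, 493 and 497 in control livers against 371, 439 and 423.5 in TAA livers. The recovery group held 510.1, 569 and 535 TPM, above all control values. By mean CPM this miRNA ranked 42 among all rows in control livers, 66 in TAA livers and 43 in recovery livers.

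mmu-miR-139-3p, the scarce arm of the same hairpin, was counted at most 83 times in a library. Control replicates 1 to 3 held 66, 27 and 47 counts, TAA replicates 39, 35 and 33, and recovery replicates 83, 66 and 48. In CPM these were 6.42, 3.56 and 6.26 in control livers, 2.40, 2.36 and 2.22 in TAA livers, and 8.87, 6.06 and 4.40 in recovery livers. The TAA values lay below all others on this scale, and the control and recovery groups overlapped. The means were 5.41 ± 1.60, 2.33 ± 0.0995 and 6.44 ± 2.26 CPM. Counting error alone, at the mean counts of the groups, came to 14.6%, 16.7% and 12.3% of the level in the control, TAA and recovery groups. On the deposited TPM scale the groups overlapped, with 2.63 to 5.08 in control livers, 3.45 to 3.86 in TAA livers and 3.85 to 6.80 in recovery livers.

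mmu-miR-455-5p, the more abundant arm of Mir455, varied most among the TAA livers. Control replicates 1 to 3 held 4729, 3622 and 3421 counts, or 459.8, 478 and 455.3 CPM. The TAA replicates held 3323, 1270 and 1831 counts, or 205, 85.7 and 123 CPM, and the recovery replicates held 3678, 5834 and 3703 counts, or 393, 536 and 339 CPM. TAA replicate 1 was thus the highest of its group and recovery replicate 2 the highest of all livers, yet no TAA value reached a control or recovery value. The means were 464 ± 11.9, 138 ± 61.0 and 423 ± 102 CPM. The SD amounted to 2.57% of the mean in control livers, 44.2% in TAA livers and 24.04% in recovery livers, while counting error was at most 2.16%. The deposited TPM were 364, 353 and 344 in control livers, 294, 140.0 and 199.75 in TAA livers, and 301, 475 and 297 in recovery livers, and here too the TAA values were the lowest.

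mmu-miR-455-3p, the arm described in stellate cells, showed the same order. Control replicates 1 to 3 held 709, 572 and 574 counts, or 68.9, 75.5 and 76.4 CPM. The TAA replicates held 415, 239 and 315 counts, or 25.6, 16.1 and 21.1 CPM. The recovery replicates held 910, 785 and 775 counts, or 97.3, 72.1 and 71.0 CPM. All TAA values lay below all others, and recovery replicate 1 was the highest liver. The means were 73.6 ± 4.06, 21.0 ± 4.73 and 80.1 ± 14.9 CPM. On the deposited TPM scale the TAA group (36.7, 26.3 and 34.4) remained below the control group (54.6, 55.7 and 57.7), and the recovery group (74.5, 64.0 and 62.2) lay above it.

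**Figure D1:**
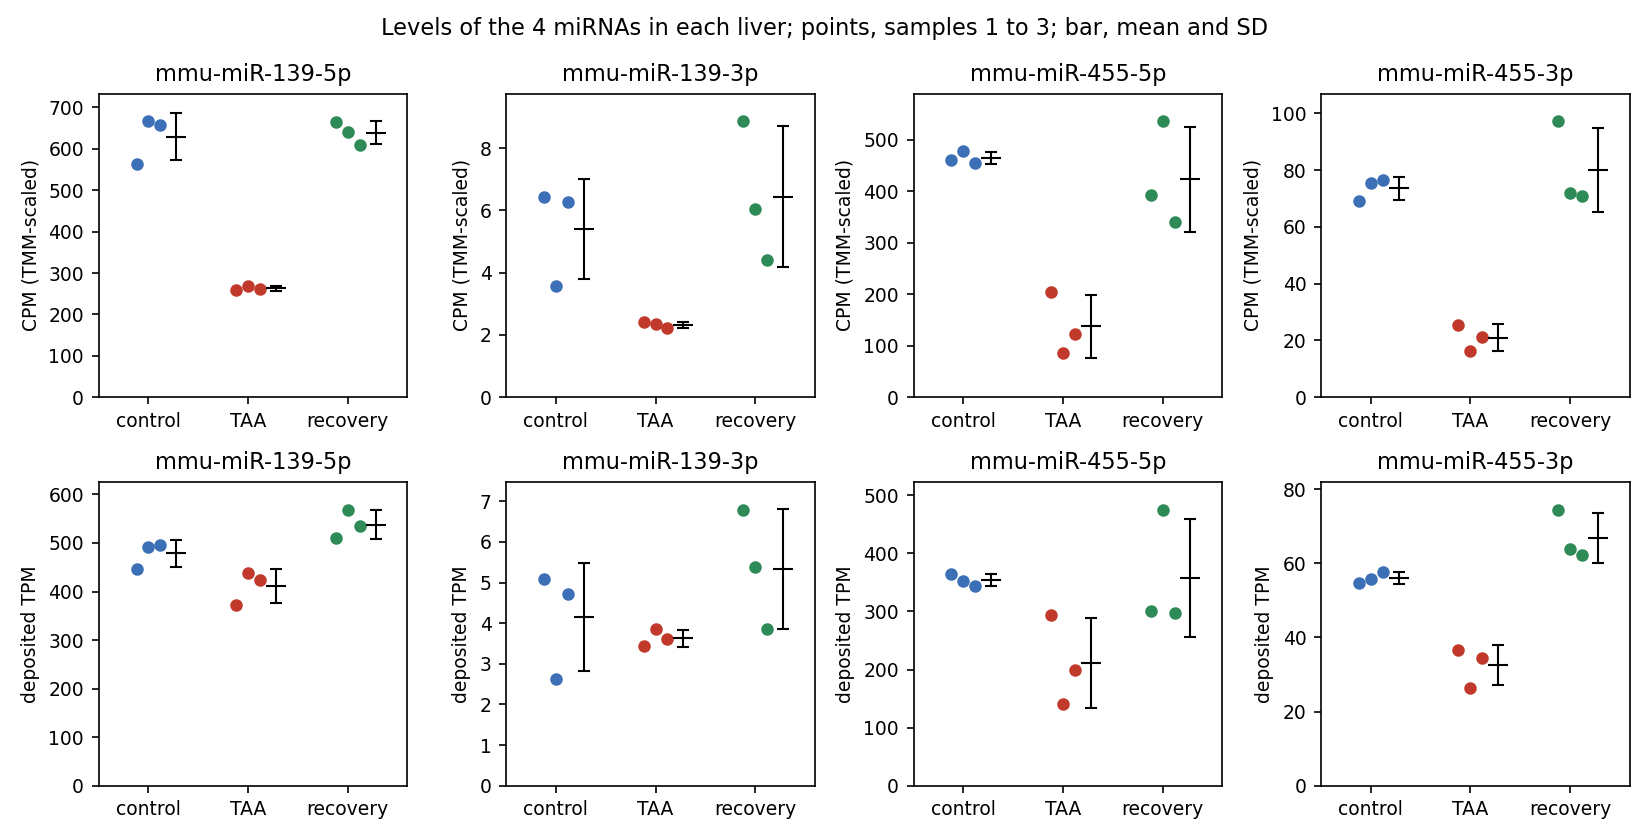
The y axis gives the level of each miRNA as TMM-scaled CPM (upper row) or deposited TPM (lower row), and the x axis the group. Points are the livers in replicate order and the black mark is the mean with its SD (n = 3). The TAA points lie lowest in all upper panels, and in the lower panels those of mmu-miR-139-3p (3.45 to 3.86 TPM) fall within the control range.

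TAA and control livers were compared first, to see which levels differed after the course of TAA. A differentially expressed miRNA (DEM) had a false discovery rate (FDR) below 0.05 in edgeR's quasi-likelihood test over all rows tested and a fold change of at least 2. All 4 miRNAs met these limits in TAA vs control on the TMM scale, a count that the choice of these miRNAs fixed, while 16.7% of the 420 rows tested were DEMs with a lower level. The log2 fold change was -1.34 for mmu-miR-139-5p (SE 0.13) and -1.30 for mmu-miR-139-3p (SE 0.30), or 2.54-fold and 2.47-fold lower. It was -1.86 for mmu-miR-455-5p (SE 0.27) and -1.91 for mmu-miR-455-3p (SE 0.17), or 3.62-fold and 3.75-fold lower. The median over all rows tested was 0.11. Of all rows tested, 11 had a lower log2 fold change than mmu-miR-455-3p and 40 had a lower one than mmu-miR-139-5p. In CPM the sample values of the groups did not overlap for the 4 miRNAs, against 27.4% of all rows that lay lower without overlap. In deposited TPM the same held for 3 of the 4, against 6.19% of all rows. Without TAA replicate 3 the log2 fold changes were -1.32, -1.26, -1.78 and -1.90 in the order of the sequences above, and all 4 were DEMs.

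In recovery vs TAA, which asked what changed after TAA was withdrawn, all 4 miRNAs were DEMs with a higher level on the TMM scale, where 10.2% of the 440 rows tested were such DEMs. This comparison shares the TAA samples with the first. The log2 fold changes were 1.26 for mmu-miR-139-5p (SE 0.14), 1.44 for mmu-miR-139-3p (SE 0.31), 1.62 for mmu-miR-455-5p (SE 0.31) and 1.92 for mmu-miR-455-3p (SE 0.21), with a median of -0.12 over all rows tested. Only 2 of all rows tested had a higher log2 fold change than mmu-miR-455-3p, and 33 had a higher one than mmu-miR-139-5p. No overlap between the groups was seen for the 4 miRNAs in CPM, against 24.5% of all rows that lay higher without overlap, and for 3 of them in TPM, against 6.14%. Without TAA replicate 3 the log2 fold changes were 1.28, 1.43, 1.54 and 1.94 in the same order, and all 4 were DEMs.

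Levels near those of control livers were part of the choice of these miRNAs, so their values in recovery vs control are a description too. In this comparison 0 of the 4 miRNAs were DEMs by edgeR, DESeq2 or limma, and 10.5% of the 391 rows tested were DEMs with a higher level. None of the 4 had an unadjusted p-value below 0.05 in edgeR (0 rows). Of the 391 rows tested, 90 had such a p-value and 44 were DEMs in either direction, so most rows were like the 4 in this. The log2 fold change was -0.02 for mmu-miR-139-5p with a 95% interval of -0.24 to 0.21, and 0.20 for mmu-miR-139-3p with an interval of -0.53 to 0.92. It was -0.18 for mmu-miR-455-5p (-0.50 to 0.15) and 0.09 for mmu-miR-455-3p (-0.26 to 0.43). The signs of these small values turned with the scale, since mmu-miR-139-5p was at 0.17 and mmu-miR-455-5p at 0.02 under library totals. In CPM 0 of the 4 lay higher in recovery livers without overlap, against 17.4% of all rows. In TPM 2 did so, mmu-miR-139-5p and mmu-miR-455-3p, against 24.6% of all rows.

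The size of the changes, and for Mir139 also their direction, depended on the scale. When libraries were scaled by their totals, which is the scale of the deposited TPM, the median of all rows moved by 1.116 in TAA vs control and by -0.86 in recovery vs TAA. On that scale the log2 fold changes in TAA vs control were -0.22 for mmu-miR-139-5p, -0.19 for mmu-miR-139-3p, -0.74 for mmu-miR-455-5p and -0.79 for mmu-miR-455-3p. There 0 of the 4 were DEMs, and only 4 of the 420 rows tested were lower DEMs. From TAA to recovery the log2 fold changes were 0.39, 0.56, 0.76 and 1.04 in the same order. Here 1 of the 4 was a DEM, mmu-miR-455-3p, and 4 of the 440 rows tested were higher DEMs. With the size factors of DESeq2 in place of TMM the values stayed near those given above, at -1.40, -1.35, -1.91 and -1.96 in TAA vs control. In the scale plot each of the 4 miRNAs lay below the median of all rows in TAA vs control under all 5 scales shown. In recovery vs TAA each lay above it. A change of scale moves all rows by nearly the same amount, so these positions could hardly change and are no separate support.

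**Figure D2:**
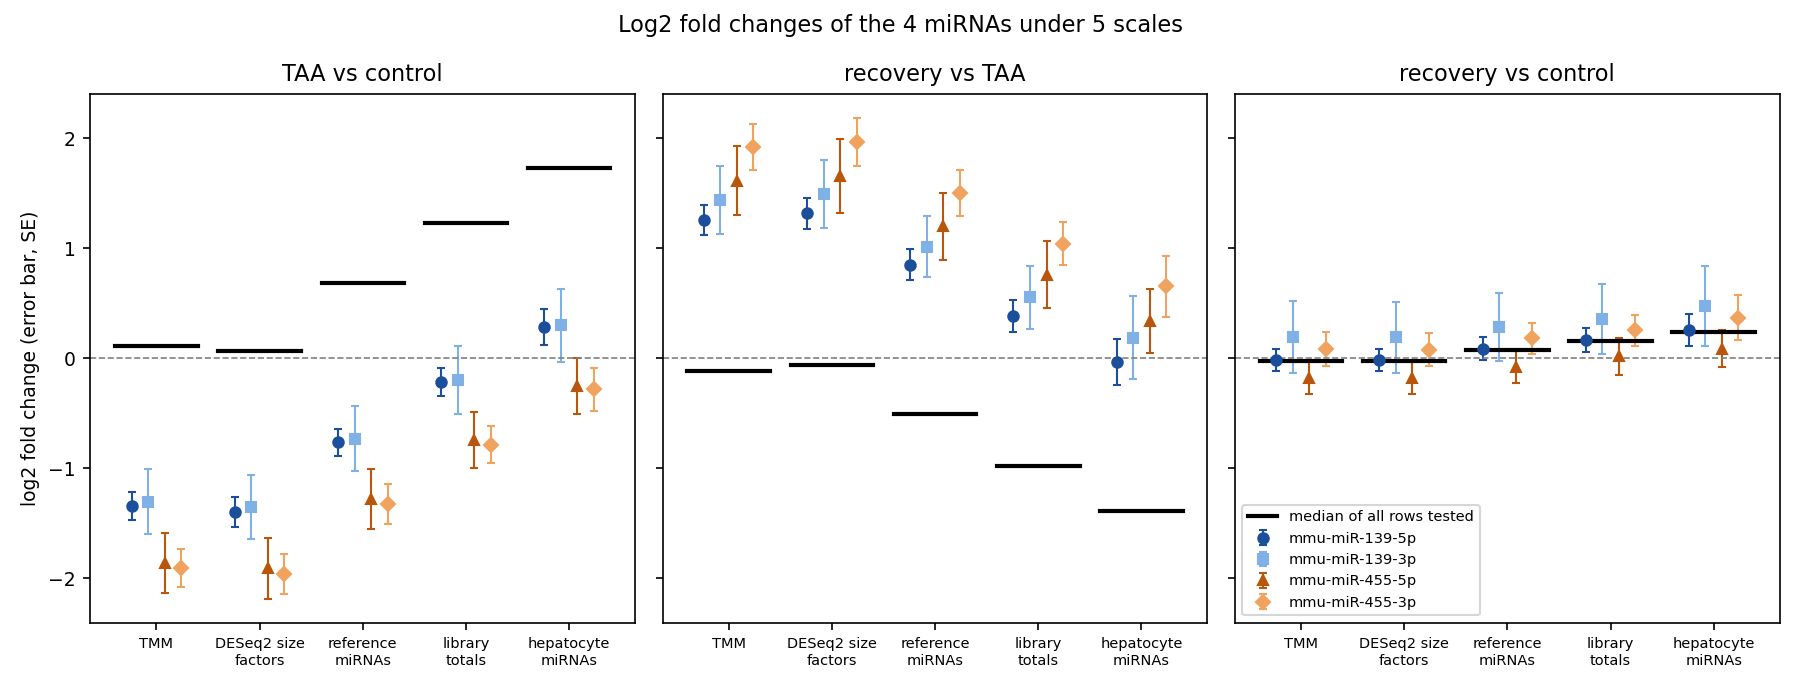
The y axis gives the log2 fold change with its SE for each of the 4 miRNAs in the 3 comparisons, and the x axis the scale used. The black line is the median of all rows tested on that scale. From left to right both the points and the median move up in TAA vs control, where mmu-miR-139-5p goes from -1.34 under TMM to 0.29 under hepatocyte miRNAs, and down in recovery vs TAA.

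Markers of the liver's cell types moved between the same groups. In bulk liver, fewer cells of a type and less RNA per cell cannot be told apart. On the TMM scale 5 of 6 hepatocyte miRNAs (such as mmu-miR-122-5p, the most abundant hepatocyte miRNA, whose counts are nearly the same as those of mmu-miR-122b-3p and cannot be told apart from them) were DEMs with a lower level in TAA vs control, and 4 of 6 were higher in recovery vs TAA (5 and 5 without TAA replicate 3). Under library totals 0 of 6 were lower and 1 was higher in TAA vs control, and 0 of 6 were higher in recovery vs TAA, where 1 of 6 was higher with 4 reference miRNAs as scale. Their summed level was 516381 to 534985 CPM in control livers, 149299 to 178171 in TAA livers and 427082 to 508917 in recovery livers. Of the bile duct miRNAs (the miR-200 family and miR-141), 5 of 5 were higher in TAA vs control and lower in recovery vs TAA, also under library totals (4 of 5 lower in recovery vs TAA without TAA replicate 3). They summed to 582 to 764 CPM, 3331 to 5534 CPM and 1239.9 to 1415 CPM in the control, TAA and recovery groups. Of 5 stellate cell and fibroblast miRNAs, 3 were higher in TAA vs control and 3 lower in recovery vs TAA, also without TAA replicate 3, with summed levels of 25481 to 31110, 18031 to 39498 and 21869.7 to 35801 CPM that overlapped.

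Other cell types gave smaller counts. On the TMM scale 2 of 5 leukocyte miRNAs were higher in TAA vs control (5 of 5 under library totals, 2 of 5 without TAA replicate 3), with sums of 189.9 to 211 CPM in control livers, 274 to 319 in TAA livers and 146 to 222 in recovery livers. Of the red cell miRNAs, 1 of 3 was lower in TAA vs control (789 to 1339, 206 to 461 and 329 to 622 CPM), and this call was lost under library totals (2 of 3 lower without TAA replicate 3). Both endothelial miRNAs, mmu-miR-126a-3p and mmu-miR-126a-5p, stayed under a fold change of 2 (8477 to 8951, 5699 to 6894 and 8347 to 9122 CPM). For the tissues in which the host genes are best known, the cartilage miRNAs mmu-miR-140-5p and mmu-miR-140-3p summed to 1039 to 1186 CPM in control livers, 878 to 1000.04 in TAA livers and 1079.9 to 1171 in recovery livers, with 0 of 2 DEMs. Of 3 miRNAs of nervous tissue, mmu-miR-124-3p had 0 counts in all control and recovery libraries and at most 2 in a TAA library, and mmu-miR-9-5p was higher in TAA vs control, a call that was lost without TAA replicate 3 and with DESeq2 size factors. The 3 together summed to 91.4 to 101 CPM in control livers, 87.5 to 129 in TAA livers and 78.1 to 103 in recovery livers. The part of these cell types in the levels of the 4 miRNAs was not tested, and the ratios that follow are a description.

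A ratio to hepatocyte miRNAs of the same library shows how the 4 miRNAs moved beside them. The sum of mmu-miR-192-5p, mmu-miR-194-5p, mmu-miR-148a-3p and mmu-miR-802-5p was used for this after the data were seen. Per 1000000 counts of this sum, mmu-miR-139-5p was counted 2309, 2489 and 2582 times in control replicates 1 to 3, 2497, 3064 and 3452 times in the TAA replicates and 3439.6, 2727 and 2662 times in the recovery replicates. The control and TAA groups overlapped, so the lower level of mmu-miR-139-5p in TAA livers was not seen beside these hepatocyte miRNAs. For mmu-miR-455-3p the values were 282.4, 281.6 and 299.9 in control livers, 247, 184 and 280.1 in TAA livers, and 502, 307 and 309.6 in recovery livers. The TAA values remained the lowest, although TAA replicate 3 came close to the control group. Beside the same sum mmu-miR-455-5p was counted 1884, 1783 and 1787 times in control livers, 1974, 977 and 1628 times in TAA livers, and 2031, 2279 and 1479 times in recovery livers. These groups overlapped, and TAA replicate 1 lay above all control livers. For mmu-miR-139-3p the groups overlapped as well, at 13.3 to 26.3 in control livers, 23.2 to 29.3 in TAA livers and 19.2 to 45.8 in recovery livers. With this sum as the scale of the edgeR fit, 0 of the 4 were DEMs in either comparison. On that scale 1 of the 420 rows tested was a lower DEM in TAA vs control, and 309 were higher. In recovery vs TAA 1 of 440 was a higher DEM and 291 were lower. A count of 0 in these directions is thus near the share of all rows. The log2 fold changes of the 4 miRNAs were 0.29, 0.30, -0.25 and -0.28 in TAA vs control. They were -0.03, 0.19, 0.34 and 0.65 in recovery vs TAA, in the order of the sequences.

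The hairpins also differed from each other, in ratios that need no scale. mmu-miR-455-3p amounted to 12.2%, 11.3% and 11.6% of the counts of mmu-miR-139-5p in control replicates 1 to 3. In the TAA replicates this share was 9.87%, 6.00% and 8.11%, and in the recovery replicates 14.6%, 11.2% and 11.6%. The TAA values lay below all others, so mmu-miR-455-3p was lower relative to mmu-miR-139-5p in the TAA livers. For mmu-miR-455-5p the share was 81.6%, 71.6% and 69.2% in control livers, 79.0%, 31.9% and 47.2% in TAA livers, and 59.0%, 83.6% and 55.6% in recovery livers. These groups overlapped through TAA replicate 1. In each of the 9 libraries the order of the counts was mmu-miR-139-5p first, then mmu-miR-455-5p, then its 3p arm and last mmu-miR-139-3p.

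Both hairpins gave more counts from the 5p arm in all 9 livers, which was not part of their choice. For Mir139 the 5p count was 87.8, 187 and 105 times the 3p count in control replicates 1 to 3, 108, 114 and 118 times in the TAA replicates, and 75.0, 106 and 138.8 times in the recovery replicates. The mean log2 ratio was 6.79 ± 0.37 (SD, n = 9; exact two-sided sign-flip permutation p = 0.00390625, the smallest that 9 samples allow). For Mir455 the 5p count was 6.67, 6.33 and 5.96 times the 3p count in control livers, 8.01, 5.31 and 5.81 times in TAA livers, and 4.04, 7.43 and 4.78 times in recovery livers. Its mean log2 ratio was 2.56 ± 0.31 (SD, n = 9; exact two-sided sign-flip permutation p = 0.00390625). mmu-miR-455-3p was thus the minor arm in each liver. Any hairpin with more counts from the same arm in all 9 livers reaches this sign-flip p-value, whatever the size of its ratio. Among 110 hairpins with a mean of at least 10 counts in each arm, 63 had more counts from the 5p arm, and the median distance from equal arms was 3.41 on the log2 scale. A larger distance was measured for 19 hairpins than for Mir139 and for 65 than for Mir455.

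**Figure D3:**
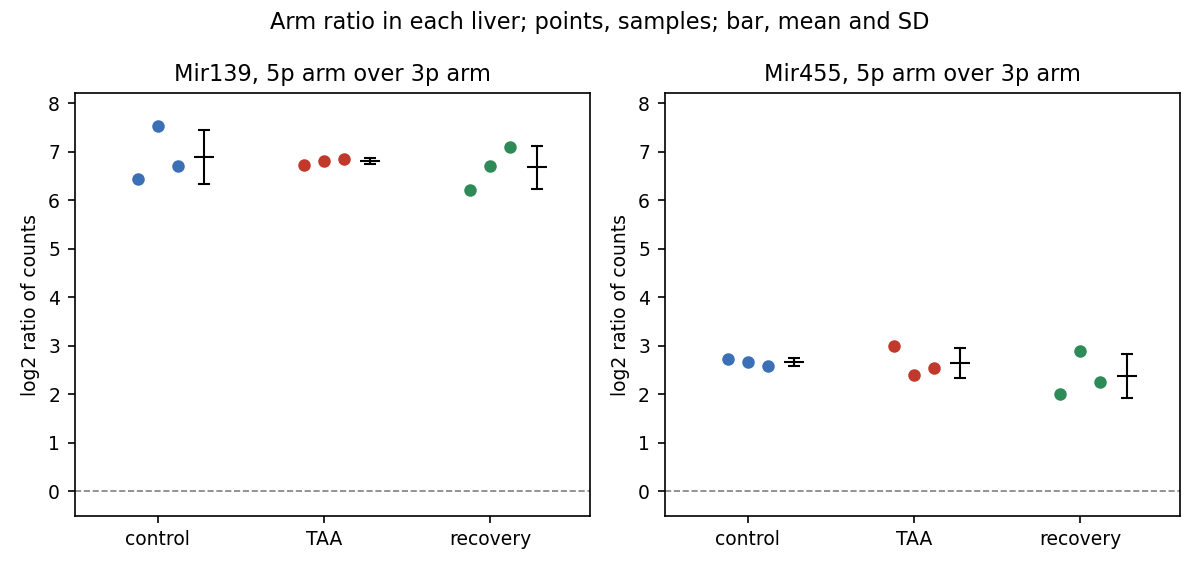
The y axis gives the log2 ratio of 5p to 3p counts (0.5 added to each) and the x axis the group. Points are the livers and the black mark is the mean with its SD (n = 3). All points lie above 0, at about 6.79 for Mir139 and 2.56 for Mir455, and the groups overlap in both panels.

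The arm ratios were then compared between the groups, as a description, since the levels of both arms had entered the choice of the hairpins. The log2 arm ratio of Mir139 was 6.89 ± 0.56 in control livers and 6.68 ± 0.44 in recovery livers (SD, n = 3). The difference was -0.21 (95% interval -0.93 to 0.51, limma over 110 hairpins), within the spread between livers. Its sign rested on single libraries, since it was 0.11 without control replicate 2 and 0.02 without recovery replicate 1. For Mir455 the ratio was 2.66 ± 0.08 in control livers and 2.39 ± 0.45 in recovery livers, a difference of -0.27 (95% interval -0.86 to 0.32). Without recovery replicate 1 this difference was -0.08 and without recovery replicate 2 it was -0.52. In limma 0 of the 110 hairpins passed the FDR of 0.05 in this comparison and 6 had an unadjusted p-value below 0.05.

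Against the TAA group the difference was -0.09 (95% interval -0.81 to 0.63) for Mir139 and -0.01 (-0.60 to 0.58) for Mir455 in TAA vs control. For recovery vs TAA it was -0.12 (-0.84 to 0.60) for Mir139 and -0.26 (-0.85 to 0.33) for Mir455. Without TAA replicate 3 the differences were -0.12 for Mir139 and 0.046 for Mir455 in TAA vs control. They were -0.093 for Mir139 and -0.32 for Mir455 from TAA to recovery. In TAA vs control 88 of the 110 hairpins had a larger difference in size than Mir139 and 106 had a larger one than Mir455. From TAA to recovery the same counts were 82 for Mir139 and 63 for Mir455. Between control and recovery livers only 43 hairpins exceeded Mir139 and 36 exceeded Mir455. Both ratios thus differed by more than the median hairpin there (0.15 in size), although their intervals included 0. Changes of the ratio within these intervals were not detectable with 3 livers per group.

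**Figure D4:**
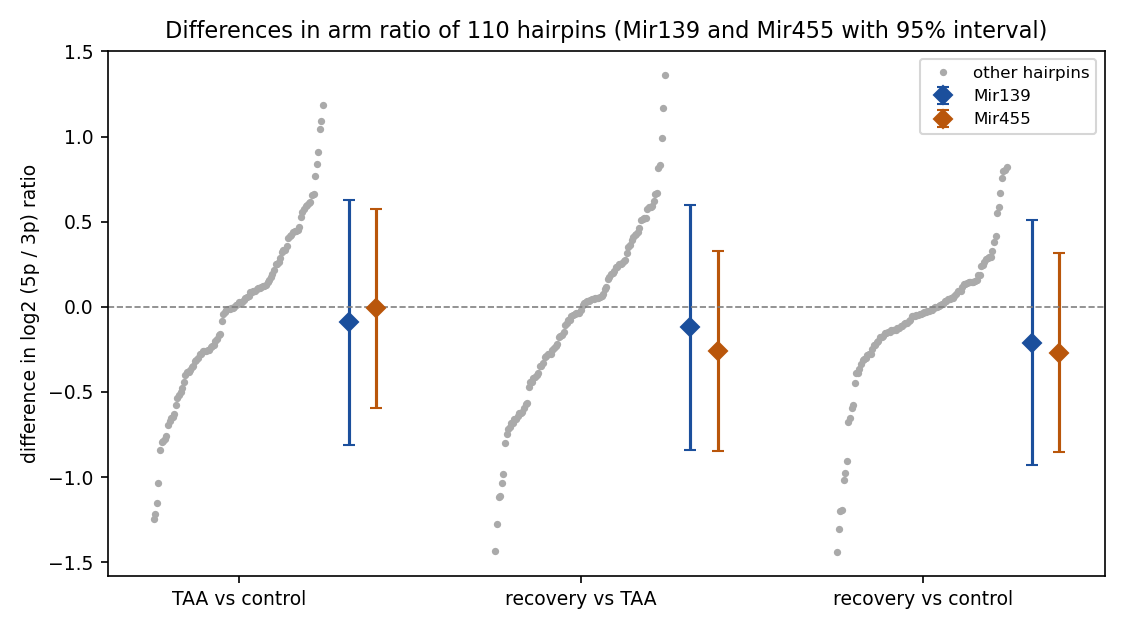
The y axis gives the difference between groups in the log2 ratio of 5p to 3p counts, for the 3 comparisons on the x axis. Grey points are the other hairpins in order of their value, and the diamonds are Mir139 and Mir455 with 95% intervals. The intervals of both hairpins include 0 in each comparison, as for Mir455 in recovery vs control (-0.86 to 0.32).

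The rows with the profile most like each miRNA were found by the root mean square difference of log2(CPM + 1), less the control mean, over the 9 livers, among 223 rows with a mean of at least 10 CPM. This is a description, and the points share their libraries and scale. Closest to mmu-miR-139-5p was mmu-miR-30c-2-3p, at 0.11, followed by mmu-miR-194-5p, mmu-miR-122-3p, mmu-miR-378a-3p and mmu-miR-378a-5p (0.15 to 0.16). In the TAA group mmu-miR-30c-2-3p lay 1.31 below its control mean and mmu-miR-139-5p 1.25 below. Closest to mmu-miR-455-3p were mmu-miR-365-3p (0.16), mmu-miR-1948-5p, mmu-miR-122-5p, mmu-miR-122b-3p and mmu-miR-29c-3p (0.23 to 0.28). On the scale of library totals the same 5 rows were found for each of these miRNAs. For abundant rows the scale factor of a library nearly cancels in these differences, because it enters both rows alike. It cancels less for mmu-miR-139-3p, a row of few counts. The rows found on that scale, here and below, come from the same counts and are no separate check.

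The other arms had looser neighbours. For mmu-miR-455-5p they were mmu-miR-1948-5p (0.21), mmu-miR-365-3p, mmu-miR-148a-3p, mmu-miR-101b-3p and mmu-miR-101a-3p (0.32 to 0.34), of which 4 were also found under library totals. For mmu-miR-139-3p, whose counts are low, they were mmu-miR-29a-3p (0.25), mmu-miR-122-3p, mmu-miR-107-3p, mmu-miR-26b-5p and mmu-miR-126b-3p (0.29 to 0.31), of which 2 were also found under library totals. The 1 added to each CPM shrinks the change of this scarce row. On this measure its TAA mean lay at -0.91 from control, against a log2 fold change of -1.30 in edgeR. Its neighbours were matched to the smaller change. The distance between the arms themselves was 0.31 for Mir455 and 0.37 for Mir139. The neighbours of mmu-miR-139-5p and mmu-miR-455-3p thus lay closer to them than their own other arm did. The neighbours were picked as the closest of 223 rows, while the other arm is a fixed row, so the choice favoured this order. For Mir139 the low counts of the 3p arm add to the distance, and so does the 1 added to each CPM. On this measure the TAA mean of mmu-miR-139-5p lay at -1.25 from control, against -1.34 in edgeR, so it shrank less than that of its 3p arm.

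**Figure D5:**
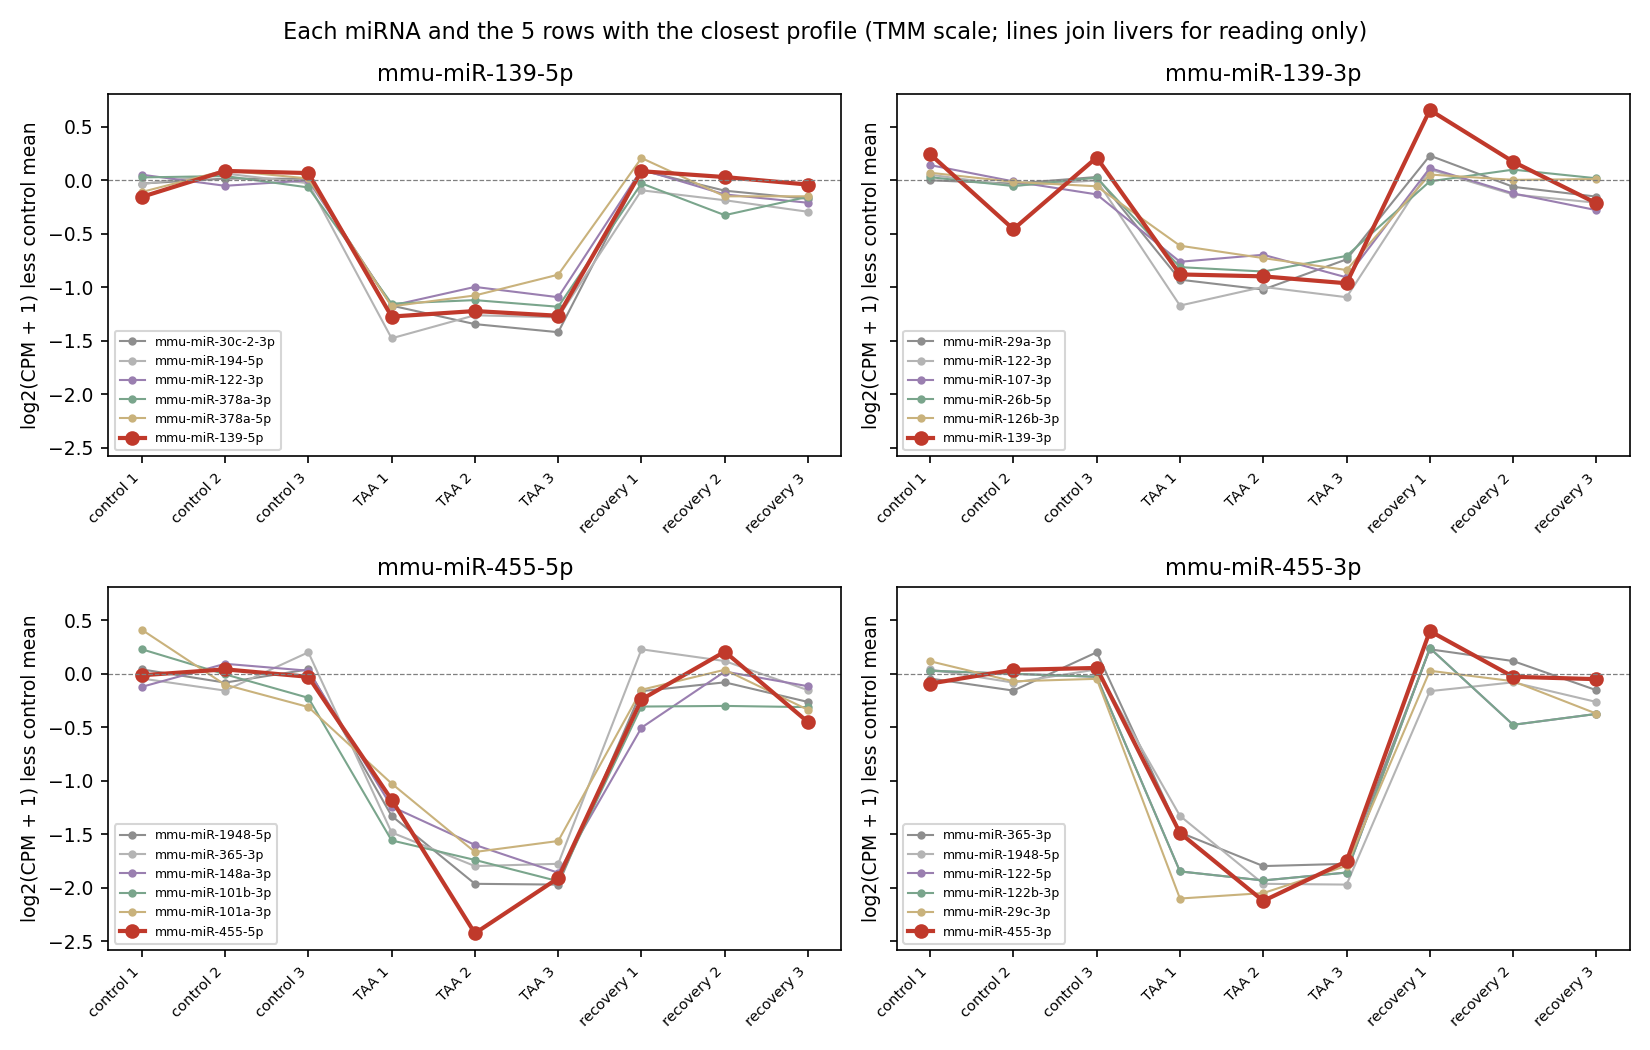
The y axis gives log2(CPM + 1) less the control mean on the TMM scale and the x axis the 9 livers. The thick red line is the named miRNA and the thin lines are the 5 rows closest to it. mmu-miR-30c-2-3p follows mmu-miR-139-5p within a root mean square difference of 0.11, and mmu-miR-365-3p follows mmu-miR-455-3p within 0.16.

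Other miRNAs described as restraints on stellate cell activation or collagen synthesis were read from a list of 16. On the TMM scale 8 of the 16 were DEMs with a lower level in TAA vs control and 0 with a higher one, with a median log2 fold change of -1.10 against 0.11 for all rows. Under library totals the median was 0.02, with 1 lower and 3 higher. In recovery vs TAA 6 rose and 1 fell on the TMM scale (median 0.86), and 1 rose and 3 fell under library totals (median -0.01). mmu-miR-29c-3p, which targets collagen mRNAs, fell by 2.18 and then rose by 1.94 on the log2 scale under TMM, and mmu-miR-122-5p fell by 1.96 and rose by 1.68. mmu-miR-15b-5p, a relative of miR-16, stayed under a fold change of 2 in TAA vs control (0.77, SE 0.21) and fell by 1.07 in recovery vs TAA. mmu-miR-133a-3p, at 5.58 (SE 2.21), did not pass the test, and its value came from TAA replicate 3, the library with muscle miRNAs. Without this library 9 of the 16 were lower in TAA vs control, and 5 rose and 1 fell in recovery vs TAA. The list shares 2 miRNAs with the hepatocyte markers.

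Among 37 other miRNAs encoded in introns of protein-coding genes, 34 were tested in TAA vs control, and 3 were lower and 2 higher DEMs on the TMM scale, with a median of -0.03. In recovery vs TAA 1 of 34 rose and 2 fell (median -0.05). Without TAA replicate 3 these counts were 2 lower and 2 higher, then 1 and 2. In recovery vs control 0 of 33 were DEMs. mmu-miR-592-5p, which lies within Grm8, fell by 3.12 in TAA vs control and rose by 3.55 in recovery vs TAA. mmu-miR-378a-3p, hosted by Ppargc1b and close in profile to mmu-miR-139-5p, fell by 1.24 and was then at 0.96 (SE 0.12), under a fold change of 2. mmu-miR-218-5p, hosted by Slit2 and Slit3, went the other way, in that it rose by 4.40 on the log2 scale and then fell by 4.46. Under library totals 19 of the 34 were higher in TAA vs control and 1 was lower, and the median was 1.09. On the same scale 1 of 34 rose and 13 fell in recovery vs TAA, with a median of -0.93.

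mmu-miR-5129-3p, the listed miRNA with the seed of mmu-miR-455-5p, was scarce. It held 6, 6 and 9 counts in control livers, 28, 19 and 19 in TAA livers, and 18, 14 and 7 in recovery livers. Its log2 fold change in TAA vs control was 0.67 (SE 0.37), and it was not a DEM in any of the 3 comparisons. Its counts were 0.127% to 1.496% of those of mmu-miR-455-5p in the 9 livers.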

How the data were processed

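Small RNA of 9 livers (3 groups of 3) was analysed, while the mRNA-seq data were not used here. The authors extracted RNA with TRIzol, built libraries with a ligation-based kit, mapped single-end reads to mm10 (GRCm38) and to miRBase with Bowtie (version 1.3.0, per the labels), and deposited 2 values per sample and miRNA. The deposited counts are whole reads that the authors did not normalize. The deposited TPM is the count per 1000000 counts of its column, not corrected for length. How reads matching more than 1 miRNA were handled is not given in the sources used here, and no row had counts nearly identical to those of the 4 miRNAs. The labels name no batch.

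Each comparison used the deposited counts of its 6 samples in edgeR (version 4.0.16, R 4.3.3): filterByExpr with a minimum count of 10, TMM factors, the quasi-likelihood test and Benjamini-Hochberg adjustment over all rows tested. edgeR takes the place of the DESeq2 test of the study, and DESeq2 (version 1.42.0) served as an alternative. Standard errors (SE) were approximated as the log2 fold change divided by the square root of F. CPM use TMM factors over the 9 samples. Arm ratios, log2 of the 5p over the 3p count with 0.5 added to each, were compared with limma (version 3.58.1) over hairpins with a mean of at least 10 counts in each arm. Arm preference was tested by an exact sign-flip permutation. The fits were tested on simulated data. For edgeR these data had as many rows raised as lowered. They cannot show which scale suits libraries whose TMM factors differ between the groups. Mature sequences came from RefSeq (GRCm38), hairpin and host positions from GENCODE M21, and duplexes from ViennaRNA (version 2.7.2).

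The members and lists were chosen with earlier results of these data known. Named miRNAs are the 4 members, the 5 rows closest to each in profile, rows that share a seed, and from each list up to 4 rows with the highest and lowest log2 fold changes at a mean of at least 10 CPM. Total counts limit the precision: counting error was 1.23% to 1.58% of the level for mmu-miR-139-5p and 12.3% to 16.7% for mmu-miR-139-3p, which had 27 to 83 counts. Counting errors cover sampling of reads only. Alternatives were other scales, tests, filters and sample sets, and leaving out single replicates.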

Additional observations from a re-analysis of the deposited data

How the results depend on the processing

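In TAA vs control 4 of the 4 miRNAs were DEMs, against 0 under library totals, 0 with limma on log2(TPM + 1), 2 with 4 reference miRNAs as scale and 0 with hepatocyte miRNAs as scale, the last chosen after seeing the data. In recovery vs TAA 4 were DEMs, against 1, 1, 3 and 0 in the same order. Of the 420 rows tested in TAA vs control, 4, 2, 29 and 1 were lower DEMs in that order. Of the 440 rows tested in recovery vs TAA, 4, 3, 23 and 1 were higher DEMs. A minimum mean of 10 CPM left 3 in each, because mmu-miR-139-3p no longer entered. DESeq2 size factors, the DESeq2 test, no filter, a fit of all 9 samples and a fit without the near-identical rows mmu-miR-122-5p and miR-122b-3p kept 4 in both comparisons, as did the removal of each replicate in turn. Under hepatocyte miRNAs the sign turned for mmu-miR-139-5p (0.29) and mmu-miR-139-3p (0.30) in TAA vs control, and for mmu-miR-139-5p (-0.030) in recovery vs TAA.

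Between recovery and control livers 0 of the 4 were DEMs under every alternative run, and signs near 0 turned. mmu-miR-139-5p was at 0.17 both under library totals and with limma, 0.089 with reference miRNAs, 0.056 with a minimum of 10 CPM, 0.0053 in a fit of all 9 samples, 0.025 without mmu-miR-122-5p and miR-122b-3p, and 0.26 with hepatocyte miRNAs. mmu-miR-455-5p was at 0.017 under library totals and 0.086 with hepatocyte miRNAs. With each replicate left out in turn the log2 fold changes were -0.093 to 0.0039 for mmu-miR-139-5p, -0.078 to 0.40 for mmu-miR-139-3p, -0.36 to -0.058 for mmu-miR-455-5p (-0.36 without recovery replicate 2) and -0.055 to 0.17 for mmu-miR-455-3p, and the arm ratio difference of Mir139 was -0.43 to 0.11. The arm preferences kept their direction with a pseudocount of 5 and with each replicate left out. A minimum of 100 counts in each arm could not be run for Mir139, whose 3p arm has fewer.

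The DEMs among all rows numbered 175 in TAA vs control (105 higher, 70 lower), against 245 under library totals (241 and 4), 212 with limma on log2(TPM + 1) (210 and 2), 192 with reference miRNAs (163 and 29), 310 with hepatocyte miRNAs (309 and 1) and 85 with a minimum of 10 CPM. In recovery vs TAA they numbered 109 (45 and 64), against 207 (4 and 203), 158 (3 and 155), 137 (23 and 114), 292 (1 and 291) and 60. Between recovery and control a minimum of 10 CPM left 13 of 44.

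Replicate numbers in the titles are shared between groups, but the mice are different animals. Same-numbered samples deviated together with correlations of -0.24 to 0.24, so the numbers were not taken as pairs. With the replicate block 4, 4 and 0 of the 4 miRNAs were DEMs in the 3 comparisons, and the arm ratio differences in recovery vs control were -0.21 for Mir139 and -0.27 for Mir455, as without it. The low counts of mmu-miR-139-3p and 3 livers per group limit what these data can separate.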
